A study of Caenorhabditis elegans with 6 samples.

Results

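The genes described here encode the contractile filaments of the body wall and pharyngeal muscles of Caenorhabditis elegans. They were chosen by name: the myosin heavy chain genes myo-1, myo-2, myo-3 and unc-54, the paramyosin gene unc-15, the tropomyosin gene lev-11, the troponin I genes unc-27 and tni-4, the troponin T gene tnt-4 and the troponin C gene tnc-2. All 10 are among the 45519 genes listed, and all 10 passed the filter on low values that left 16794 genes for testing. RNA was sequenced from whole larvae held in arrest at the first larval stage, with 3 N2 wild-type libraries and 3 of a strain with the allele aqz 3 of the noncoding RNA gene linc-133. Eggs of both strains were hatched without food in M9 buffer and kept there for 3 days at 20 °C. The labels do not describe the lesion of aqz 3, and they do not say whether the replicates were separate cultures, so the spread behind each p-value may be technical. Reads on linc-133 itself were few, with 9, 6 and 5 in wild type against 6, 2 and 2 in the mutant. Values are FPKM, read fragments scaled for gene length and library size, so that levels of genes of different length can be set beside each other.

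In worm muscle, thick filaments are built from myosin heavy chains wound around a core of paramyosin, and they pull on thin filaments of actin. Body wall muscle, which moves the animal, uses the heavy chains MHC A (myo-3) and MHC B (unc-54). The pharynx, the pump that takes in food, uses MHC C (myo-2) and MHC D (myo-1). On the thin filament, tropomyosin blocks the myosin sites until calcium binds troponin C, and troponin I and troponin T pass that signal on. The worm has separate body wall and pharyngeal genes for most troponin subunits, with unc-27 serving body wall muscle and tni-4, tnt-4 and tnc-2 the pharynx. Paramyosin and tropomyosin come from single genes that serve both muscles.

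The labelled material was whole animals, and defining regulators of both muscles were present in every library. The body wall factor gene unc-120 measured 35.7 to 41.6 FPKM and hlh-1, the worm MyoD, 17.5 to 26.9 FPKM. The pharyngeal organ selector pha-4 measured 44.4 to 63.5 FPKM and the pharyngeal muscle factor ceh-22 measured 5.43 to 9.73 FPKM. In whole animals, fewer muscle cells and less RNA per muscle cell cannot be told apart.

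One property of the libraries touches the filament genes directly. In the mutant libraries the level of a gene moved with its length, and not in the same direction in each. Length classes were formed over genes whose mean reached 10 FPKM. In the class above 6000 and up to 8000 bases, which has 103 genes and holds the 4 heavy chain genes, the median deviation from the gene's own mean over the 6 libraries was -0.37, -0.39 and 0.53 on the log2 scale for mutant replicates 1, 2 and 3. The wild-type libraries lay at 0.08, 0.11 and 0.05. In the class above 500 and up to 1000 bases, with 1791 genes that include unc-27, tni-4 and tnc-2, the order turned round. The mutant replicates 1, 2 and 3 there lay at 0.10, 0.16 and -0.18. Mutant replicate 3 therefore stands apart from the other libraries in the direction opposite to mutant replicates 1 and 2. The strain differences of the 10 genes are given with and without mutant replicate 3, and with the length trend removed from every library. Between 16108063 and 18556695 reads on genes lay behind a library, and between 1941 and 164179 behind a filament gene in a library. The counting error was thus at most 2.27% of a value, well under the spread between replicates.

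**Figure D1:**
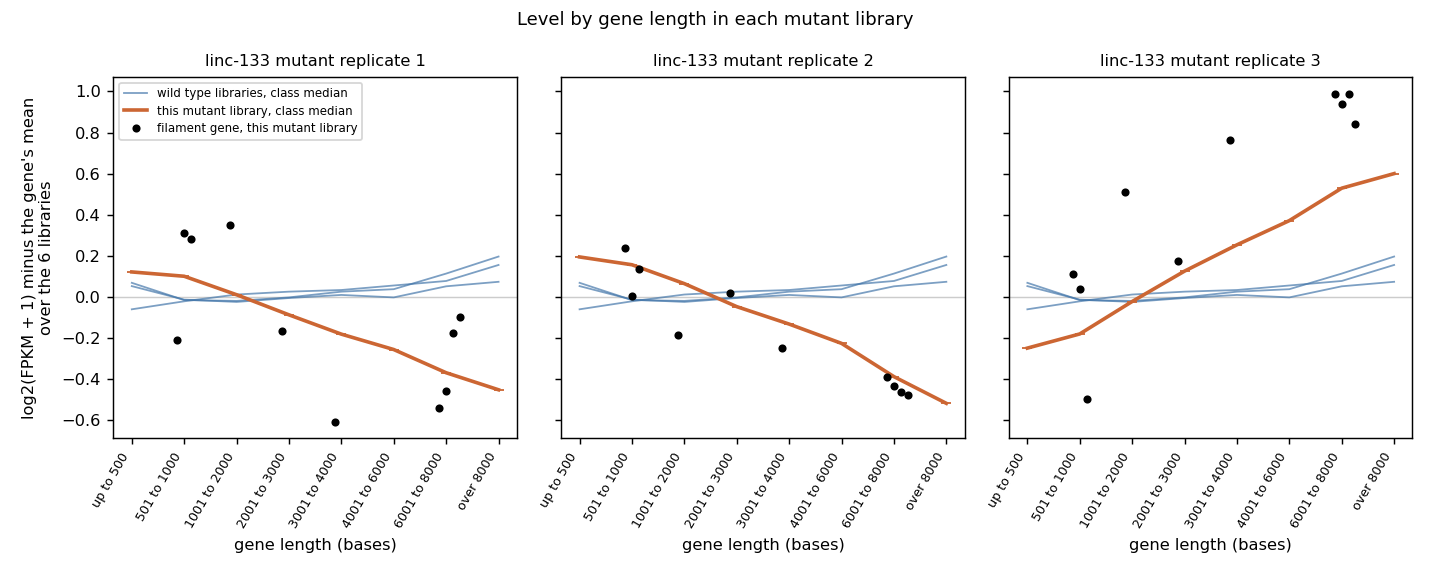
Median log2(FPKM + 1) of the 8398 genes whose mean reached 10 FPKM, in 8 classes of gene length, as the difference from each gene's mean over the 6 libraries, with 1 panel for each mutant library. Orange lines are that mutant library, blue lines the 3 wild-type libraries and black points the 10 filament genes in that mutant library. In mutant replicate 3 the line climbs with length and the 4 heavy chain genes lie above it, while in mutant replicates 1 and 2 it falls with length.

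The body wall heavy chain genes had the same pattern over the libraries. unc-54 (gene 259839, chromosome I, 14855901 to 14863573, minus strand, WBcel235), the major heavy chain of body wall muscle, had a level of 781, 924 and 794 FPKM in replicates 1, 2 and 3 of the wild type. Replicates 1, 2 and 3 of the mutant gave 578, 642 and 1672 FPKM. Mutant replicates 1 and 2 thus lay below every wild-type library and mutant replicate 3 lay above all of them, so that the ranges of the strains overlap. The means were 833 ± 79.03 FPKM for wild type and 964 ± 614 FPKM for the mutant (SD over n = 3 libraries each). The log2 difference was 0.04 ± 0.39 (SE; limma adjusted p = 0.976), with a 95% interval from 0.535-fold to 1.97-fold. myo-3 (gene 179676, chromosome V, 12226816 to 12234343, minus strand), whose MHC A lies at the middle of the thick filament, measured 180.1, 209.5 and 172 FPKM in the wild-type libraries. Its mutant libraries measured 137, 139 and 362 FPKM, again with replicates 1 and 2 below and replicate 3 above all wild-type libraries. The log2 difference of myo-3 was 0.03 ± 0.38 (SE; limma adjusted p = 0.98).

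The pharyngeal heavy chain genes also peaked in mutant replicate 3. myo-2 (gene 181404, chromosome X, 12468061 to 12475348, plus strand), which encodes MHC C, measured 151, 192 and 225 FPKM in the wild-type libraries, against 179, 147 and 402 FPKM in the mutant libraries, in replicate order. myo-1 (gene 172471, chromosome I, 7258915 to 7267117, minus strand), which encodes MHC D, measured 107, 137 and 165 FPKM in the wild-type libraries, against 133.5, 102 and 257 FPKM in the mutant libraries. Unlike in the body wall genes, mutant replicate 1 lay inside the wild-type range in both. The log2 difference was 0.23 ± 0.38 for myo-2 (SE; limma adjusted p = 0.835) and 0.18 ± 0.35 for myo-1 (SE; limma adjusted p = 0.869).

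Paramyosin, the rod protein at the core of the thick filament, had the pattern of the body wall heavy chains. unc-15 (gene 172491, chromosome I, 7357240 to 7383197, minus strand) measured 762, 873 and 797 FPKM in the wild-type libraries, against 519, 666 and 1346 FPKM in the mutant libraries. Its mutant libraries lay 2 below and 1 above the wild-type range. The means were 811 ± 56.8 and 844 ± 441 FPKM (SD over n = 3 libraries each), and the log2 difference was -0.06 ± 0.34 (SE; limma adjusted p = 0.951). In the files unc-15 spans far more of the chromosome than its 3411 bases of gene length. Its ends differ from those of the RefSeq table, as do those of myo-1, unc-54, unc-27 and lev-11.

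**Figure D2:**
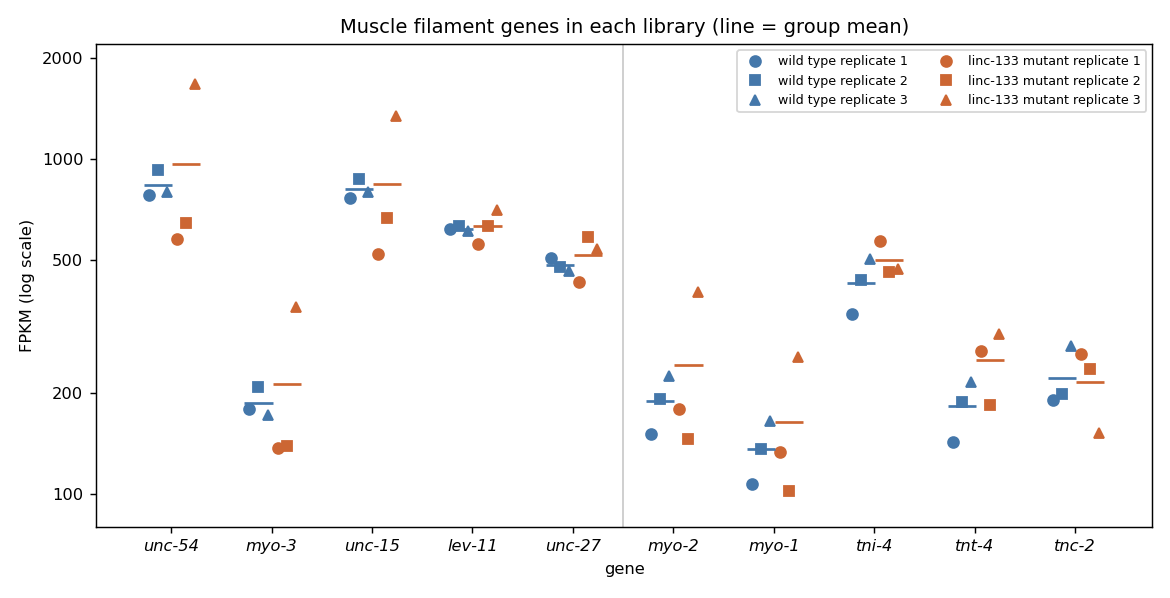
FPKM of the 10 filament genes (log axis) in each library, with wild type in blue, the linc-133 mutant in orange, a symbol for each replicate number and a line at each group mean. The genes left of the grey line are those of body wall muscle or of both muscles and those right of it are pharyngeal; mutant replicate 3 is the highest of the 6 libraries in 7 of the 10 genes.

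The thin filament genes lev-11 and unc-27 varied less between libraries than the heavy chain genes. lev-11 (gene 173319, chromosome I, 14620814 to 14631254, minus strand), the tropomyosin gene, measured 618, 632 and 608 FPKM in the wild-type libraries, against 555, 630.1 and 702 FPKM in the mutant libraries. Its wild-type libraries differed from each other by a coefficient of variation of 2.001%, the smallest of the 10 genes, and lay inside the range of the mutant libraries. The log2 difference was 0.02 ± 0.13 (SE; limma adjusted p = 0.968), with a 95% interval from 0.82-fold to 1.25-fold. The annotation lists 20 transcripts for lev-11, which include isoforms of different muscles, and a single value per gene cannot tell them apart. unc-27 (gene 181124, chromosome X, 8789450 to 8790621, plus strand), a body wall troponin I that holds contraction back at low calcium, measured 507, 477 and 463 FPKM in wild type. The mutant libraries measured 430.2, 587 and 538 FPKM, 1 below and 2 above the wild-type range. The log2 difference of unc-27 was 0.09 ± 0.15 (SE; limma adjusted p = 0.828).

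The pharyngeal troponin genes tni-4 and tnc-2 did not peak in mutant replicate 3. tni-4 (gene 177295, chromosome IV, 5204591 to 5207124, plus strand), the pharyngeal troponin I, measured 345, 435 and 502 FPKM in the wild-type libraries, against 569.6, 459 and 470.2 FPKM in the mutant libraries. Its highest library was mutant replicate 1, and mutant replicates 2 and 3 lay inside the wild-type range. tnc-2 (gene 174612, chromosome II, 10466852 to 10468358, plus strand), the pharyngeal calcium sensor troponin C, measured 191, 199.7 and 276 FPKM in the wild-type libraries, against 262, 237 and 152 FPKM in the mutant libraries. Here mutant replicate 3 was the lowest of the 6 libraries, and the log2 difference was -0.06 ± 0.25 (SE; limma adjusted p = 0.943). In the annotation 157 of the 819 exonic bases of tnc-2 also belong to clec-143 on the other strand, and reads there cannot be assigned by strand with this library kit.

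tnt-4 had the largest ratio of means among the 10 genes. tnt-4 (gene 178679, chromosome V, 1989471 to 1992918, minus strand), the pharyngeal troponin T that ties the troponin complex to tropomyosin, measured 143, 188 and 217 FPKM in the wild-type libraries, against 268, 185 and 300.2 FPKM in the mutant libraries. Mutant replicates 1 and 3 lay above every wild-type library and mutant replicate 2 lay inside their range. The means were 183 ± 37.02 and 251 ± 59.5 FPKM (SD, n = 3 each), a ratio of 1.37. The log2 difference was 0.45 ± 0.24 (SE; limma adjusted p = 0.450), with a 95% interval from 0.922-fold to 2.02-fold. For tni-4 the log2 difference was 0.24 ± 0.18 (SE; limma adjusted p = 0.614).

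Over the 10 genes, 0 passed limma's adjusted p of 0.05, against 0% of all 16794 genes tested. An unadjusted p under 0.05 was found for 0 of 10 filament genes and for 13.7% of all genes. The ranges of the strains were separate in 0 of 10 filament genes and in 20.0% of all genes. The median log2 difference was 0.07 over the 10 genes and 0.00 over all tested genes, with 8 positive and 2 negative values. The median coefficient of variation of the filament genes was 14.5% in wild type and 38.2% in the mutant, against 9.92% and 18.1% over the 8398 genes whose mean reached 10 FPKM. Those genes were not matched to the members for length, and long genes in general diverged between the mutant libraries.

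Without mutant replicate 3 the means of the heavy chain genes turned to the lower side, and unc-15 moved further below 0. The log2 difference was then -0.45 for unc-54 (limma adjusted p = 0.207), -0.43 for myo-3 (limma adjusted p = 0.211) and -0.46 for unc-15 (limma adjusted p = 0.235). The corresponding unadjusted p-values in limma were 0.0171, 0.0184 and 0.0267. These 3 of 10 filament genes had a p under 0.05 without that library, against 17.4% of all genes. The pharyngeal heavy chains changed sign as well, to -0.20 for myo-2 and -0.20 for myo-1. tni-4 and tnt-4 kept their sign, at 0.28 and 0.31, and tnc-2 moved to 0.18, lev-11 to -0.07 and unc-27 to 0.06.

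The excess of mutant replicate 3 was compared with that of genes of like length. unc-54 was 2.74 times as high in mutant replicate 3 as in the mean of mutant replicates 1 and 2, myo-3 2.62 times, myo-2 2.47 times and myo-1 2.18 times. The median gene of their length class was 1.92 times as high, and 5, 8, 14 and 27 of its 103 genes had a larger ratio than unc-54, myo-3, myo-2 and myo-1. unc-15 was 2.27 times as high against a median of 1.35 in its class, where 14 of 599 genes had a larger ratio. lev-11, at 1.18 times, lay close to the median of 1.15 for its class. tnt-4 was 1.32 times as high against a median of 0.955, and unc-27 1.06 times and tni-4 0.914 times against 0.798. tnc-2, at 0.61 times, was the only filament gene below its class median.

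With the length trend removed from every library, mutant replicate 3 was the highest library for the 4 heavy chain genes, unc-15 and tnt-4, as before. The highest library of unc-27 moved from mutant replicate 2 to mutant replicate 3, and that of lev-11 from mutant replicate 3 to mutant replicate 2. The excess of mutant replicate 3 over the mean of mutant replicates 1 and 2 was then 1.65-fold for unc-54, 1.59-fold for myo-3, 1.49-fold for myo-2, 1.30-fold for myo-1 and 1.77-fold for unc-15. For unc-54 it fell from 1.455 to 0.723 on the log2 scale. The class medians of mutant replicates 1, 2 and 3 lay further apart than this fall, at -0.37, -0.39 and 0.53. The curve was fitted over all 16794 tested genes, and part of the length trend of abundant long genes may remain in these ratios. The log2 differences between the strains were 0.17 for unc-54, 0.15 for myo-3, 0.36 for myo-2, 0.32 for myo-1 and -0.03 for unc-15. For the thin filament genes they were 0.05 for unc-27, 0.19 for tni-4, 0.41 for tnt-4, -0.10 for tnc-2 and 0.015 for lev-11. Removing the trend narrowed the 95% interval of unc-54 to between -0.36 and 0.70 on the log2 scale. No filament gene passed in that fit either (lowest adjusted p = 0.472 in limma, tnt-4), and 0 of 10 had an unadjusted p under 0.05, against 15.4% of all genes. When mutant replicate 3 was also left out, unc-54 and myo-3 were both at -0.07 and unc-15 at -0.30. The pharyngeal heavy chains were above 0 in that fit, at 0.19 for myo-1 and 0.17 for myo-2. In mutant replicates 1 and 2 the low body wall heavy chains thus accompanied a low level of long genes in general.

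**Figure D3:**
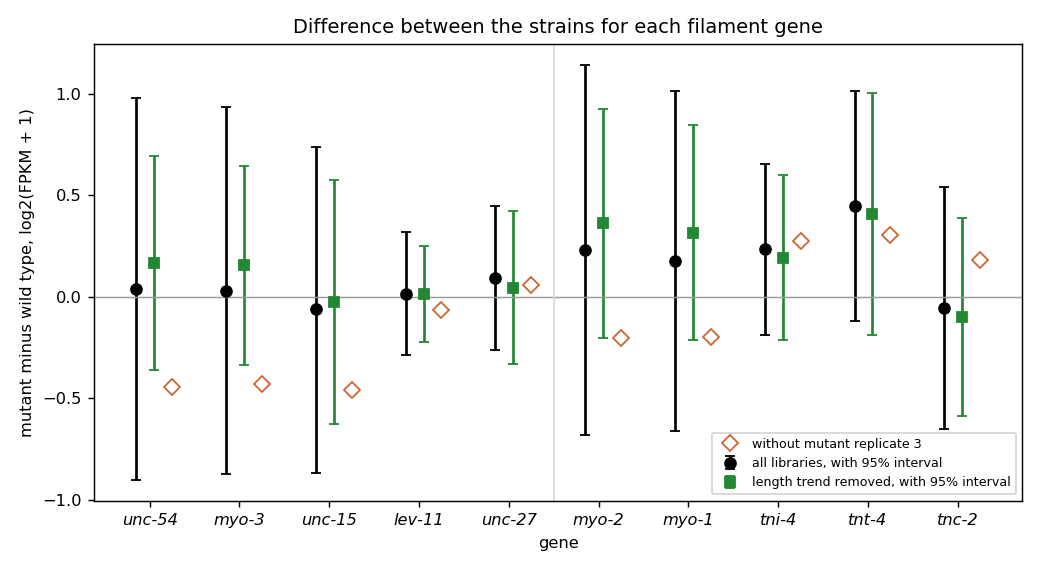
Difference between the strains (mutant minus wild type, log2(FPKM + 1)) for each filament gene. Black circles are all 6 libraries and green squares the same with the length trend removed, both with 95% limma intervals; open diamonds leave out mutant replicate 3. Every interval spans 0, and the heavy chain genes lie below 0 without mutant replicate 3.

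Ratios between heavy chains within a library set genes of nearly the same length, 6105 to 6548 bases, against each other. The ratio of unc-54 to myo-3 was 4.34, 4.41 and 4.61 in wild type and 4.21, 4.62 and 4.62 in the mutant, so the proportion of the body wall heavy chains was nearly the same in each library. The ratio of myo-1 to myo-2 was 0.71, 0.713 and 0.732 in wild type and 0.745, 0.699 and 0.64 in the mutant, within a range of 1.16 times. unc-54 alone gave 56.2% to 64.1% of the FPKM of the 4 heavy chains, myo-2 12.4% to 17.4%, myo-3 12.7% to 14.8% and myo-1 8.78% to 12.99%. The order of unc-54 far above the other 3 and of myo-1 below myo-2 was thus the same in all 6 libraries. myo-3 and myo-2 changed places between libraries, so no order between them holds in every library.

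The balance of pharyngeal to body wall heavy chains was more variable than either heavy chain ratio within a muscle. The summed pharyngeal heavy chains came to 0.268, 0.290 and 0.404 of the summed body wall heavy chains in the wild-type libraries, and to 0.437, 0.319 and 0.324 in the mutant libraries, in replicate order. The largest ratio was 1.63 times the smallest, against 1.16 for myo-1 over myo-2 and 1.096 for unc-54 over myo-3. Troponin ratios within the pharynx varied about as much. The largest was 1.71 times the smallest for tnc-2 over tni-4 and 1.59 times for tnt-4 over tni-4. Wild-type replicate 3 and mutant replicate 1 had the highest pharyngeal to body wall ratios, and the strains overlap. By level, myo-1 and myo-2 were highest in mutant replicate 3. In mutant replicate 1 they lay inside the wild-type range, while unc-54 and myo-3 lay below it. The ratio of tni-4 to unc-27, a pharyngeal and a body wall troponin I gene, ranked the same 2 libraries highest, at 1.09 and 1.32, and wild-type replicate 1 lowest, at 0.682. Other troponin I genes were not part of it. In wild type all 5 pharyngeal filament genes were lowest in replicate 1 and highest in replicate 3, while myo-3, unc-54, unc-15 and lev-11 were highest in replicate 2. The 7 markers of pharyngeal glands and lining had a summed level of 245, 338 and 377 FPKM in the wild-type libraries, against 352, 271 and 246 FPKM in the mutant libraries, and their part in the filament ratios was not tested.

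Ratios across filament systems varied more among the mutant libraries than among the wild-type libraries. tni-4 over myo-2 was 2.29, 2.26 and 2.23 in wild type and 3.18, 3.14 and 1.17 in the mutant. lev-11 over unc-54 was 0.792, 0.685 and 0.766 in wild type and 0.961, 0.981 and 0.420 in the mutant. Paramyosin over the 4 heavy chains was 0.625, 0.597 and 0.588 in wild type and 0.505, 0.647 and 0.4997 in the mutant. In the first 2 ratios mutant replicates 1 and 2 lay above and mutant replicate 3 below all wild-type libraries. unc-27 over unc-54 was 0.649, 0.516 and 0.583 in wild type and 0.745, 0.913 and 0.322 in the mutant. tni-4, unc-27 and lev-11, of 821, 939 and 2491 bases, are shorter than myo-2 and unc-54, of 6334 and 6295 bases. In the class of tni-4 and unc-27 the medians of mutant replicates 1, 2 and 3 were 0.10, 0.16 and -0.18. They were -0.088, -0.048 and 0.125 in that of lev-11, and -0.37, -0.39 and 0.53 in that of the heavy chains. The part of gene length in these ratios was not tested. A wider mutant spread was also seen for tnc-2 over tni-4, genes of 819 and 821 bases. That ratio was 0.554, 0.460 and 0.550 in wild type and 0.460, 0.515 and 0.323 in the mutant.

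**Figure D4:**
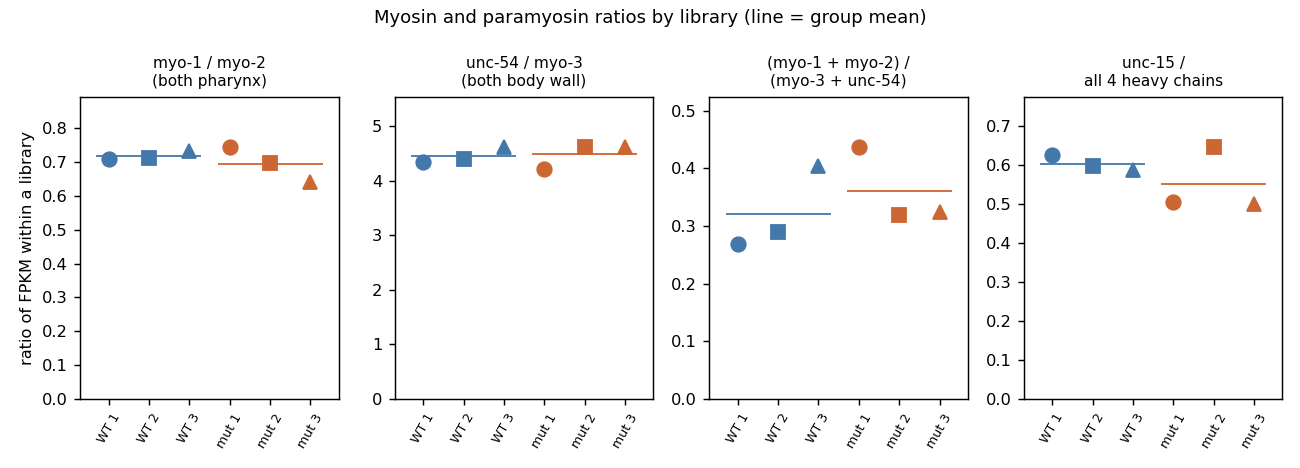
Ratios of FPKM within each library for wild-type (WT, blue) and mutant (mut, orange) replicates 1 to 3, with lines at the group means and axes from 0. The heavy chain ratios within a muscle (first and second panels) stay close to their means, whereas the pharyngeal to body wall ratio runs from 0.268 to 0.437 and overlaps between the strains.

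The other sarcomere genes were described by lists, whose counts are to be read against the 13.7% of all genes with an unadjusted p under 0.05 and the 20.0% with separate ranges. The 6 other troponin genes and the 3 myosin light chain genes gave 0 members with an unadjusted p under 0.05, with median log2 differences of -0.005 and -0.04. The body wall troponin C gene pat-10 measured 1628, 1528 and 1451 FPKM in the wild-type libraries, against 1282, 1571 and 1037 FPKM in the mutant libraries. The regulatory light chain gene mlc-2 was the most abundant, at 4565 ± 213 and 4917 ± 425 FPKM (wild type, then mutant; SD, n = 3 each). Among the 5 actin genes, act-2 was the only one with an unadjusted p under 0.05, at 229, 210.2 and 217 FPKM in the wild-type libraries, against 318, 291 and 361 FPKM in the mutant libraries. Every mutant library of act-2 lay above every wild-type library, but it missed the threshold (limma adjusted p = 0.183), and its near-identical copies make its own level uncertain. The major actin gene act-4 measured 1617 ± 45.8 and 1369.6 ± 165 FPKM (SD, n = 3 each; limma adjusted p = 0.437). Its mutant libraries all lay below the wild-type range, as did those of act-1, at 290, 249.8 and 221 FPKM in the wild-type libraries, against 186, 207 and 206 FPKM in the mutant libraries (limma adjusted p = 0.373). The ranges were thus separate in 3 of 5 actin genes, higher in the mutant for act-2 and lower for act-4 and act-1, and act-1 too has near-identical copies.

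In the list of M-line and giant muscle proteins, 9 of 10 genes were tested, and 1 had an unadjusted p under 0.05. This was unc-45, which encodes the chaperone that folds the myosin head. It measured 32.1, 30.2 and 33.3 FPKM in the wild-type libraries, against 44.6, 40.8 and 65.8 FPKM in the mutant libraries, without overlap (log2 difference 0.61 ± 0.19 SE, limma adjusted p = 0.264). The difference of unc-45 was 0.65 with the length trend removed. unc-22, which encodes the giant kinase twitchin, measured 37.02, 42.9 and 44.2 FPKM in the wild-type libraries, against 22.5, 33.3 and 100.7 FPKM in the mutant libraries, with replicates 1 and 2 below and replicate 3 above the wild-type range. The list of dense body and attachment genes (16 tested), the excitation and calcium list (16 tested) and the dystrophin complex list (8 tested) each had 0 members with an unadjusted p under 0.05. Of the 13 thin filament regulators tested, 0 had one, and unc-60 and cap-1 are listed at 0 in every library, which can be a failed estimate. The most abundant genes of these lists were cpn-3, a calponin gene, at 532 ± 31.4 and 591 ± 23.2 FPKM, the M-line gene unc-96 at 89.3 ± 15.6 and 79.0 ± 9.83 FPKM, and the zyxin gene zyx-1 at 115 ± 4.34 and 116 ± 13.99 FPKM (wild type, then mutant; SD, n = 3 each). The calcium pump gene sca-1 measured 386 ± 21.3 and 391 ± 146 FPKM, and the dystrophin gene dys-1 measured 59.8 ± 5.004 and 51.5 ± 27.7 FPKM. sca-1 and dys-1, of 4337 and 11542 bases, were highest in mutant replicate 3, at 1.81 and 2.34 times the mean of mutant replicates 1 and 2. The 7 nonmuscle myosin heavy chain genes had 0 members with an unadjusted p under 0.05 and a median log2 difference of -0.23, and the most abundant, hum-5, measured 68.5 ± 8.21 and 62.8 ± 16.5 FPKM. Median log2 differences were -0.135 for the M-line list, -0.127 for the dense body list, -0.07 for the thin filament list, -0.06 for the dystrophin list and -0.02 for the excitation list, beside 0.00 over all genes. With the length trend removed the M-line median changed sign, to 0.06, and the others were -0.07, -0.07, -0.07 and -0.007 in the same order, with -0.12 for the nonmuscle heavy chains. Without mutant replicate 3 the medians were -0.46 for the M-line list, -0.20 for the dense body list, -0.17 for the excitation list and -0.395 for the nonmuscle heavy chains. They were -0.16 for the thin filament list and -0.12 for the dystrophin list. An unadjusted p under 0.05 with a lower mutant mean was then found for 5 of 9 M-line, 5 of 16 dense body, 3 of 16 excitation and 5 of 7 nonmuscle heavy chain genes, against 17.4% of all genes in either direction. Lower with such a p were 0 of 13 thin filament, 0 of 6 other troponin, 0 of 3 light chain, 1 of 8 dystrophin and 1 of 5 actin genes. Higher with such a p was 1 gene each in the M-line, thin filament, dystrophin and actin lists. The M-line, dense body, excitation and nonmuscle lists hold 5, 4, 4 and 4 genes over 6000 bases. The dystrophin list holds 1, and the thin filament, other troponin, light chain and actin lists hold 0. Genes of that length were low in general in mutant replicates 1 and 2, and the share over all genes is not matched for length.

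Regulators of muscle fate had lower levels than the filament genes, and most overlapped between the strains. Of 6 body wall regulators, hnd-1, a bHLH factor of the early muscle lineage, had an unadjusted p under 0.05, with 4.56, 3.71 and 3.31 FPKM in the wild-type libraries, against 6.23, 6.51 and 5.38 FPKM in the mutant libraries (limma adjusted p = 0.264). Of 5 pharyngeal regulators tested, tbx-2, a T-box factor needed for anterior pharyngeal muscle, had one, with 21.9, 21.5 and 20.98 FPKM in the wild-type libraries, against 26.8, 27.7 and 27.8 FPKM in the mutant libraries (limma adjusted p = 0.26). Neither passed the threshold, and in both genes the ranges of the strains were separate, as in 20.0% of all genes. In the marker lists of other tissues, 0 of 8 neuron genes, 1 of 8 intestine genes (pho-1), 2 of 8 epidermis genes (elt-3 and elt-1) and 0 of 7 pharyngeal gland and lining genes had such a p, and these 3 had higher means in the mutant, beside 13.7% of all genes in either direction. Summed levels overlapped between the strains in each of these lists, from 915 to 1011 FPKM in wild type and 924 to 937 FPKM in the mutant for neurons, 3701 to 4107 and 2609.5 to 4165 FPKM for intestine, and 225 to 286 and 239 to 279 FPKM for epidermis. Their most abundant genes measured 565 ± 39.1 and 494 ± 76.8 FPKM for the synaptobrevin gene snb-1, 3175 ± 162 and 2626 ± 618 FPKM for the aspartyl protease gene asp-1, 101 ± 3.68 and 92.2 ± 39.2 FPKM for the junction gene ajm-1, and 186 ± 51.5 and 164 ± 32.5 FPKM for the pharyngeal gland gene phat-5 (wild type, then mutant; SD, n = 3 each).

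The genes whose profile over the 6 libraries was closest to the median profile of the filament genes were not muscle genes by name. The members themselves do not share that profile. In mutant replicate 3 it stood at 0.637, with unc-54 at 0.99, tni-4 at 0.037 and tnc-2 at -0.50. They were hrpu-1, Y39H10A.6, sfa-1, Y71F9B.6 and parg-1, with root mean square distances of 0.0431 to 0.0581 on the log2 scale over 6 libraries. hrpu-1 measured 34.1, 36.3 and 38.2 FPKM in the wild-type libraries, against 33.1, 31.7 and 63.5 FPKM in the mutant libraries. sfa-1 measured 70.2, 75.5 and 76.1 FPKM in the wild-type libraries, against 62.6, 65.6 and 121.6 FPKM in the mutant libraries.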

How the data were processed

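RNA of 6 libraries was sequenced, and groups follow the sample titles. The deposited values are FPKM, per the file headers, with a length per gene. Tools named in the submitters' processing notes are STAR 2.5.2b, Bowtie 0.12.2 and StringTie, and the build is WBcel235; the role of each tool is not given in the sources used here. Strand is not marked by the TruSeq kit of the labels' protocols. Reads were recovered from the deposited FPKM, since FPKM times length came in whole steps in each library (100% of 131954 values above 0 were within 0.01 of a whole read). The library totals those steps imply are 0.9004 to 1.117 times the recovered totals, so the deposited values already carry a scaling between libraries.

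A gene was tested if its mean over the libraries reached 1 FPKM. The fit was limma 3.58.1 (R 4.3.3) with trend and robust moderation on log2(FPKM + 1), strain being the only term, and fold changes are on that scale. P-values were Benjamini-Hochberg adjusted over all 16794 genes at a threshold of 0.05. Removing the length trend was chosen after the data were seen: a lowess curve (span 0.3) of each gene's deviation from its mean on log2 length was subtracted per library. The fit was tested on simulated data. Exons and overlaps come from the Ensembl annotation of WBcel235 and chromosome numbers from RefSeq. The members and lists were chosen with earlier results of these data known. Named besides the 10 members are the most abundant gene of a list, up to 3 genes per list with an unadjusted p under 0.05, and the 5 genes nearest to the members' median profile (mean of 10 FPKM or more). act-1, unc-22, unc-60, cap-1, hlh-1 and ceh-22 were named after their values were seen.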

Additional observations from a re-analysis of the deposited data

How the results depend on the processing

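The count of 0 filament genes past the threshold was the same under every alternative run, from 0 to 0 without any 1 library. The count over all genes was 0, and became 23 when limma ran without trend and robust moderation, 3 in voom on the recovered reads and 9 at an adjusted p of 0.1; it was 0 to 0 without any 1 library. With the replicate number as a block both counts stayed at 0. Libraries of the same number did not deviate together over all genes (correlations of 0.0162, -0.0344 and 0.0288). Such correlations cannot settle whether libraries of the same number were prepared together. The block lowered the SE for the heavy chain genes, unc-15 and tnt-4, and raised it for unc-27, tni-4, tnc-2 and lev-11. It went from 0.351 to 0.238 for myo-1 and from 0.25 to 0.292 for tnc-2. The 10 log2 differences kept their sign in all 9 alternatives that used all 6 libraries. Leaving out 1 library at a time gave -0.20 to 0.46 for myo-1, -0.20 to 0.52 for myo-2, -0.43 to 0.27 for myo-3, -0.45 to 0.32 for unc-54, -0.46 to 0.23 for unc-15, -0.0658 to 0.10 for lev-11, -0.21 to 0.18 for tnc-2 and -0.0023 to 0.22 for unc-27, so each of these changed sign. tni-4 (0.09 to 0.36) and tnt-4 (0.28 to 0.65) did not. With the length trend removed and mutant replicate 3 left out, the differences that changed sign were -0.0678 for myo-3, -0.0716 for unc-54, -0.0512 for unc-27, 0.06 for tnc-2 and -0.0017 for lev-11. The planned count models were not run, and voom on the recovered reads was run in their place. The 3 libraries per strain limit the intervals, while read depth does not.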
